A study of Mus musculus with 4 samples.

Results

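The genes described here are 36 mouse genes of the lysosome and of autophagy, out of 21154 genes named on the array. They were taken by name, as the probes whose transcript accession leads through the RefSeq annotation to one of 36 symbols. That rule uses no measured value, but the symbols were chosen with earlier results of these data known. The symbols cover 8 roles: 6 cathepsins, 6 glycosidases and lipid carriers, 4 lysosomal membrane proteins, 2 transcription factors, 5 members of the ATG8 family, 6 genes of autophagosome initiation and membrane supply, 5 genes of the conjugation machinery and 2 cargo receptors. They were read by 45 probes, 1 probe for each of 27 genes and 2 probes for each of the other 9, and all 36 were well above background on every array.

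The study used 4 one-colour Agilent arrays from 1 slide, a single array for each of its 4 groups. They held RNA of LSK cells (c-Kit and Sca-1 on the surface and no lineage markers, the fraction that holds the stem cells) and of MEP cells (megakaryocyte and erythroid progenitors), each sorted from marrow after JQ1 or its solvent DMSO had been given for 2 weeks. JQ1 displaces the BET bromodomain proteins from acetylated chromatin. All 4 groups share their background: C57BL/6 mice of the genotype JAK2V617F/Ezh2Δ/Δ, in which total marrow from donors with floxed Ezh2 and Cre-ERT2 was transplanted into CD45.1+ wild-type hosts after lethal irradiation. No group lacks the JAK2 mutation or keeps Ezh2, so the comparisons are between treatments and between cell types within that genotype. How many animals each array stands for is not stated in the labels.

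With 1 array per group there was no replicate check, no test and no p-value, and a difference below is a difference between 2 arrays. Values are log2 signals relative to the 75th percentile of the array, here called log2 signals. Differences are relative to the median of all genes measured in the same comparison, and a gene is called higher or lower where it differed by at least 2-fold, with 1.5-fold as a second threshold. The arrays had 45.2% to 53.2% of their probes well above background. The DMSO MEP array stood apart, with correlations of 0.973 to 0.976 to the others against 0.979 to 0.991 among those, and nothing that needs it can be computed without it. Where a gene had 2 measured probes, the difference between the 2 probes' log2 differences had an SD of 0.35 for JQ1 in LSK and 0.51 for JQ1 in MEP. Between the cell types that SD was 0.49 with DMSO and 0.37 with JQ1, and 3122 to 3225 genes entered each. This SD compares 2 probes on the same arrays. It holds differences between the probes as well as array error, and it does not measure the spread between mice, sorts or labellings. Of 11 MEP markers (among them Gata1, Klf1 and Epor), all were at least 2-fold higher in MEP than in LSK under both treatments. Under DMSO, 9 of 11 LSK markers were below the median gene in MEP. The LSK marker Slamf1 went the other way there, with a log2 difference of 2.35. Ezh2 gave log2 signals of 3.36 and 3.43 in LSK and of 3.31 and 3.69 in MEP, each under DMSO and then JQ1. Whether its probe lies inside the deleted stretch is not known here.

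Lysosomes break down proteins, glycans and lipids with acid hydrolases, which are delivered through the secretory pathway and by endocytosis. In autophagy, ULK1 signalling and lipid-modifying complexes start a double membrane, ubiquitin-like conjugation couples ATG8 proteins to it, and the closed autophagosome fuses with a lysosome. The transcription factors TFEB and TFE3 bind a short palindromic element, called CLEAR, in promoters of many of these genes. In the marrow, autophagy is known for the upkeep of stem cells and for the removal of mitochondria during red cell maturation.

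The promoters are shown because the CLEAR-type element is a sequence feature through which many lysosome and autophagy genes are known to be controlled together. RefSeq promoter entries on GRCm38.p6 were matched for 29 of the 36 genes, and no promoter was examined for the other 7 genes, Ctsb, Ctsh, Npc1, Map1lc3a, Becn1, Atg12 and Atg16l1. The motif TCACGTG was searched on both strands in the 250 bases before the gene start. It was present in 6 of the 29 promoters (20.7%), against 968 of 27025 genes (3.58%) and 25 of 132 promoters (18.9%) of a longer list of other lysosome and autophagy genes. The shorter motif CACGTG, which lies within TCACGTG, was in 8 of 29 (27.6%), with Ctsl and Atg5 added, against 6.86% of all genes. Windows of 60 bases with the match in capitals, 5′ to 3′ in the direction of the gene, are as follows.
Atg7: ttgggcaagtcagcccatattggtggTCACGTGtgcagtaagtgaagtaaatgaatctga
Ctsa: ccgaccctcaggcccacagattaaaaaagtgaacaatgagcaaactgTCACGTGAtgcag
Ctsd, far site: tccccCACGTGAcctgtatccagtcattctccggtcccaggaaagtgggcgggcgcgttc
Ctsd, near site: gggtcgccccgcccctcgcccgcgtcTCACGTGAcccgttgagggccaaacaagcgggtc
Glb1: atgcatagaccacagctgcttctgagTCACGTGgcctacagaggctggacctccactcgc
Lamp1: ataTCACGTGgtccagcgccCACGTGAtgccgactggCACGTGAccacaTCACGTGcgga
Mcoln1: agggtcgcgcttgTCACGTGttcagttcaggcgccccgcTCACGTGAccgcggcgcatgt

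These windows lie at chr6:114670937-114670996 on the plus strand (Atg7), chr2:164833713-164833772 on the plus strand (Ctsa), chr7:142388018-142388077 and chr7:142387893-142387952 on the minus strand (Ctsd), chr9:114401003-114401062 on the plus strand (Glb1), chr8:13159096-13159155 on the plus strand (Lamp1) and chr8:3500434-3500493 on the plus strand (Mcoln1). All are upstream of an annotated gene start. Lamp1, a main glycoprotein of the lysosomal membrane, had 4 matches within its window, from 62 to 16 bases before the start. Mcoln1, the lysosomal calcium channel, had 2 sites. Where TCACGTGA is in capitals, the motif and its reverse complement overlap in 1 site. A match is a description of the letters and was not examined for binding.

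The 36 genes differed little between the arrays. Taken relative to the median gene of each array, the range of a gene's log2 signal over the 4 arrays had a median of 0.52, close to the 0.53 of all 12016 genes measured on every array, and ran from 0.13 to 2.12. The range was under 1 for 32 of the 36 (80.8% of all genes were under 1). On the same scale, the DMSO MEP array was the lowest of the 4 for 16 members and the highest for 9. The DMSO LSK array was the highest for 13 and the lowest for 6. How often each array was the extreme over all genes was not counted, so these counts have no baseline. Ctsh, Atg9a, Optn and Atg16l1 are the members that passed 2-fold in any of the 4 comparisons.

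**Figure D1:**
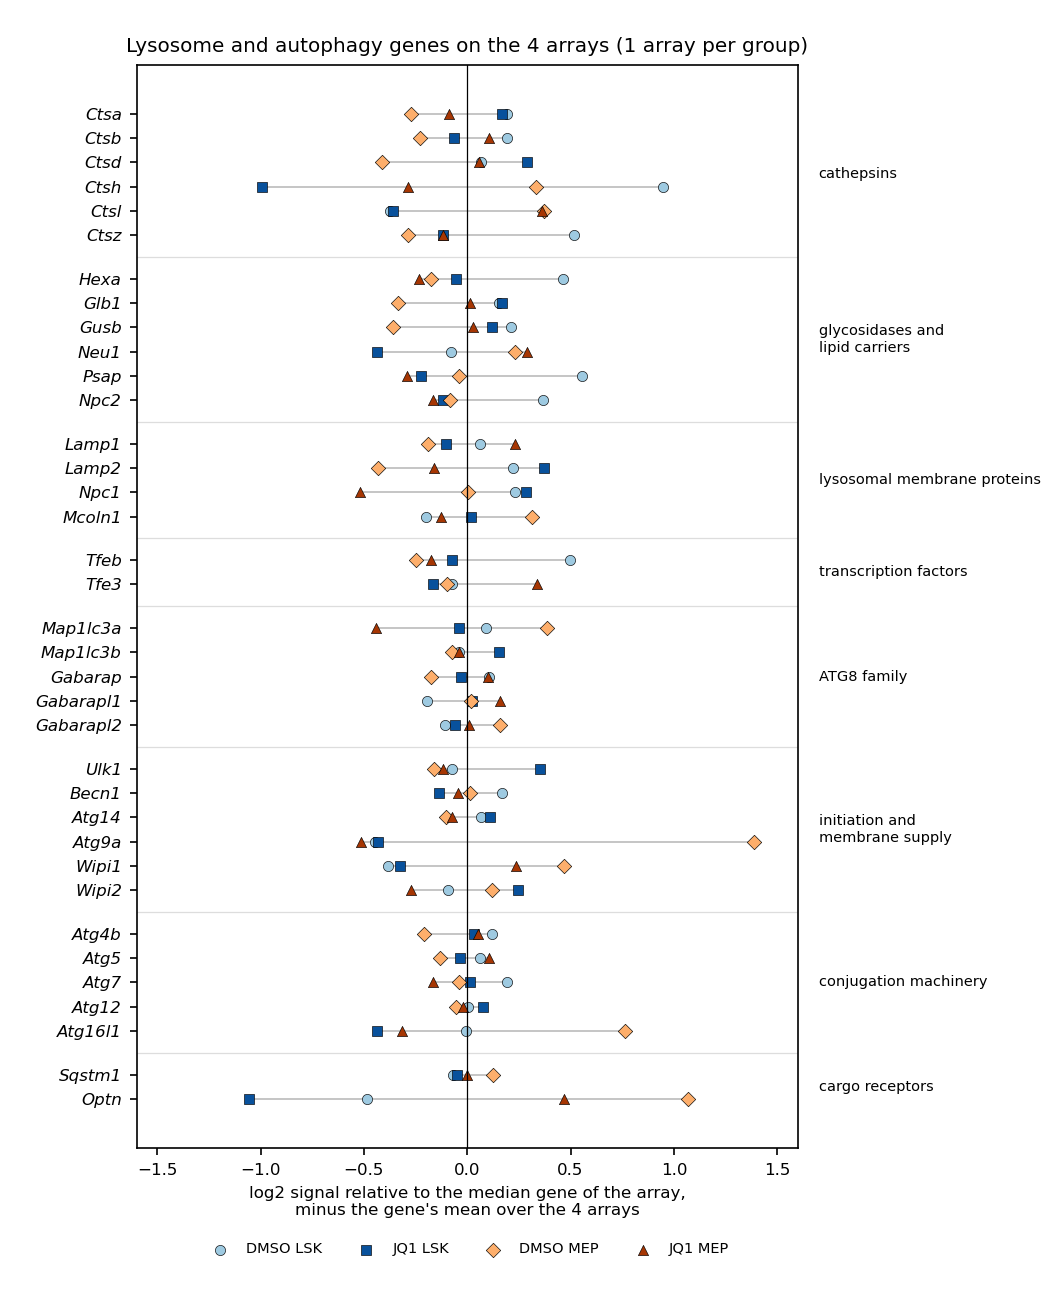
Log2 signal of the 36 genes on the 4 arrays, each relative to the median gene of its array and to the gene's own mean over the 4 arrays, ordered by role; each point is 1 array. Ctsh is low on JQ1 LSK, Atg9a and Atg16l1 are high on DMSO MEP alone, and Optn is high on both MEP arrays.

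The first question was what 2 weeks of JQ1 did to these genes in LSK cells. Ctsh, cathepsin H, an aminopeptidase of the lysosome, was 3.81-fold lower relative to the median gene, and it was the only member past 2-fold. At 1.5-fold, Ctsh, Ctsz and Psap were lower and none was higher. The 36 genes had a median of -0.08, with quartiles at -0.31 and 0.06, and all 12328 genes had quartiles at -0.18 and 0.15. Lower by 2-fold was 1 of 36, where 3.22% of all genes were, and higher were 0 of 36, where 0.543% were. At 1.5-fold 3 of 36 were lower, against 7.53% of all genes, and 0 were higher, against 2.34%.

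Among the cathepsins, Ctsh had log2 signals of 5.08 on DMSO LSK, 3.21 on JQ1 LSK, 4.31 on DMSO MEP and finally 3.97 on JQ1 MEP. It was highest in LSK under DMSO and lowest in LSK under JQ1, with the MEP arrays in between. Its difference in LSK was -1.93, from 1 probe, and ranged from -1.98 to -1.67 over 8 other ways of processing. Ctsz, a carboxypeptidase of the same family, had log2 signals of 5.70, 5.13, 4.74 and 5.19 in the same order of arrays. It too was highest in LSK under DMSO, and its difference with JQ1 in LSK was -0.63. The protease genes Ctsa (-0.01), Ctsb (-0.25), Ctsd (0.23) and Ctsl (0.02) differed by less than 1.5-fold. All 4 were smaller in size than 0.35, the SD of the difference between 2 probes, which is not the error of a single probe.

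Of the glycosidases and lipid carriers, Psap, the precursor of the saposins that present sphingolipids to their hydrolases, was 1.71-fold lower with JQ1 in LSK. Its log2 signals were 4.98 on DMSO LSK and 4.27, 4.23 and 4.25 on JQ1 LSK, DMSO MEP and JQ1 MEP. The DMSO LSK array thus stood above the other arrays, which lay close together. Hexa, a subunit of beta-hexosaminidase, differed by -0.51, Npc2, which carries cholesterol out of the lysosome, by -0.47, and Neu1, the lysosomal sialidase, by -0.35. Gusb, beta-glucuronidase, differed by -0.08 and Glb1, beta-galactosidase, by 0.02. Of the 12 soluble members, cathepsins and this group together, 9 lay below the median gene and their median was -0.30, where all genes fall equally on both sides by construction. Over the other ways of processing that median ran from -0.34 to -0.04. Grouping these 12 was a choice made after the values had been seen.

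None of the 4 lysosomal membrane genes differed by 1.5-fold in LSK, with Mcoln1 at 0.23, Lamp2 at 0.15, Npc1 at 0.06 and Lamp1 at -0.15. Tfeb, a dim signal, was at -0.57 and Tfe3 at -0.09. The autophagy genes stood close to the median gene in LSK. The 18 of them had a median of 0.02, 10 above and 8 below, and none was past 1.5-fold. Ulk1, the kinase that starts autophagosome formation, had the highest value of all 36 genes, 0.43, with log2 signals of 3.48 under DMSO and 3.97 under JQ1. Optn, an adaptor for ubiquitin-tagged cargo, had the lowest value of the 18, -0.56, at a signal where the scanner's own error was 17.0% to 17.7%. The ATG8 genes lay between -0.13 (Gabarap) and 0.22 (Gabarapl1), the initiation genes between -0.30 (Becn1) and Ulk1, and the conjugation genes between -0.42 (Atg16l1) and 0.08 (Atg12).

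The other genes of the pathway came from lists of 168 symbols, of which 164 were on the array and 152 were measured in LSK. Those 152 had a median of -0.07, with 97 below the median gene. By 2-fold, 0 were higher and 4 lower, against 0.543% and 3.22% of all genes. The 4 were the thiol reductase Ifi30 (-1.24), the macrosialin gene Cd68 (-1.17), the TFEB relative Tfec (-1.12) and Ctss, cathepsin S (-1.02). Ifi30 and Ctss are known for the handling of antigen in antigen-presenting cells. Of 34 other hydrolases and cofactors, 28 were below the median gene, with a median of -0.16. The V-ATPase, the pump that acidifies lysosomes, had 16 of 17 measured subunits and accessory genes below the median gene, at a median of -0.10 and with none past 1.5-fold.

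Marker lists of other cells differed between the LSK arrays in both directions. Of all genes, 3.22% were lower and 0.543% higher by 2-fold there. All 9 measured dendritic cell markers were below the median gene, 6 of them by 2-fold (Clec9a, Cd74, H2-Eb1, H2-Aa, H2-Ab1 and Itgax), and the summed linear signal of that list, relative to the 75th percentile, was 984 under DMSO and 553 under JQ1. Monocyte and macrophage markers summed to 101 and 39.9, with 4 of 13 lower by 2-fold (Mpeg1, Csf1r, Adgre1 and Cx3cr1), while C1qa (0.55), Spic (0.42), C1qb (0.35) and Vcam1 (0.01) lay above the median gene and Cd5l and Mrc1 were not well above background on any of the 4 arrays. Of 10 measured neutrophil and promyelocyte markers, Camp (1.91), S100a9 (1.47) and Chil3 (1.27) were higher by 2-fold and Elane and Lcn2 lower, and the list summed to 1943 and 1299. All 8 megakaryocyte markers and all 10 mast cell and basophil markers measured were below the median gene, as were 6 of 9 erythroblast markers, although Epb42 among the latter was at 1.40. Stromal and endothelial markers had a median of 0.29 over 7 genes, 4 above and 3 below the median gene. That list summed to 52.6 under DMSO and 42.9 under JQ1. Lymphoid markers summed to 302 and 121, with 11 of 13 lower by 2-fold and Pax5 not above background on any array. LSK markers summed to 278 and 350. The part of these cells in the differences of Ctsh, Ctsz, Psap, Ctss, Ifi30 and Cd68 was not tested. In bulk samples, fewer cells of a type and less RNA per cell cannot be told apart.

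The second question was the same in MEP cells. Atg9a, the membrane protein whose vesicles seed the autophagosome, was 3.92-fold lower under JQ1, and Atg16l1, which places the conjugation complex on the membrane, was 2.21-fold lower. No member was 2-fold or 1.5-fold higher. Scaled to the median probe without centring, where the median gene was at 0.75, 6 members were 2-fold higher (Ctsb, Ctsd, Glb1, Gusb, Lamp1 and Tfe3). That scaling keeps the shift of the median gene, and the share of all genes 2-fold higher under it was not counted. With centring, the 36 genes had a median of -0.04, and that of all 12550 measured genes is 0 by construction. Lower by 2-fold were 2 of 36, where 5.77% of all genes were, and higher were 0 of 36, where 0.980% were. Both genes had dim signals. Among genes with a mean log2 signal below 0, 2 of 7 members were lower by 2-fold, where 11.7% of all such genes were. Past 1.5-fold and lower were 6 of 36 (Ctsh, Npc1, Map1lc3a, Atg9a, Atg16l1 and Optn), against 13.7% of all genes, and higher were 0 of 36, against 4.10%.

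Atg9a had log2 signals of 0.39 on DMSO MEP and -1.25 on JQ1 MEP, and of -1.30 and -1.22 on the DMSO and JQ1 arrays of LSK. The DMSO MEP array was high and the other arrays lay close together. Atg16l1 had log2 signals of 0.41, -0.39, -0.21 and -0.57 in the same order, again highest on DMSO MEP. Each of these genes was read by 1 probe. Atg9a stayed past 2-fold in all 7 other ways of processing that kept it, from -2.06 to -1.22. Atg16l1 (-1.15 here) was under 2-fold without centring (-0.81), with scaling to the median probe (-0.39), with quantile normalization (-0.97) and with normexp background correction (-0.88).

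Map1lc3a, a dim ATG8 gene, had log2 signals of -0.02 on DMSO MEP and -0.57 on JQ1 MEP and a difference of -0.89. The brighter ATG8 genes differed little in MEP, with Map1lc3b at -0.04, Gabarapl1 at 0.07, Gabarap at 0.21 and Gabarapl2 at -0.22. Wipi2, which reads phosphoinositide on the forming membrane, was at -0.46 by its brighter probe and at 0.12 by its other probe. Becn1 and Atg14, subunits of the lipid kinase complex, were at -0.13 and -0.04, Wipi1 was at -0.30 and Ulk1 at -0.03. In the conjugation machinery Atg5 (0.17), Atg7 (-0.19), Atg12 (-0.04) and Atg4b (0.19) were all under 1.5-fold, as was Sqstm1 (-0.19). Of the 18 autophagy genes, 14 lay below the median gene, with a median of -0.16, which was 0.18 without centring, since the median gene itself was 0.34 higher on the JQ1 MEP array.

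Lysosomal genes in MEP were spread to both sides. Of the 12 soluble members 6 lay above and 6 below the median gene, at a median of 0.04. Ctsd, cathepsin D, the main aspartic protease of lysosomes, had the highest value of the 36, 0.40, although its other probe gave -0.34. Ctsh was at -0.68, and it was the only member lower by 1.5-fold with JQ1 in both cell types, where 2.23% of 12016 genes were. Lamp1 was at 0.35 and Npc1, the cholesterol transporter of the lysosomal membrane, at -0.59. Tfe3 was at 0.37 and Tfeb at 0.00. Every soluble member other than Ctsh and Ctsd lay between -0.32 (Psap) and 0.32 (Gusb).

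Among 153 other measured pathway genes in MEP, 1 was higher and 4 were lower by 2-fold, against 0.980% and 5.77% of all genes. Galns, a sulfatase, was at 1.19. Dnase2a, the nuclease of lysosomes that digests expelled nuclei in macrophages, was at -1.54, Stx17, the autophagosomal fusion syntaxin, at -1.13, Cd68 at -1.07 and Rragb, a GTPase that recruits mTORC1, at -1.05. Of the 34 other hydrolases and cofactors, 16 were above and 18 below the median gene in MEP, at a median of -0.01. The V-ATPase had 11 of 17 above and 6 below, at a median of 0.11. Stx17 had log2 signals of 1.04 on DMSO MEP and 0.25 on JQ1 MEP, and of -0.28 and 0.30 on the DMSO and JQ1 arrays of LSK. Dnase2a had 6.31, 5.11, 5.54 and 5.57 in the same order. Both were highest on DMSO MEP, as Atg9a and Atg16l1 were.

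Genes of the immediate early and handling response also stood high on the DMSO MEP array. The 14 of them, all above background on every array, had a summed linear signal of 459 there, against 158 on DMSO LSK, 129 on JQ1 LSK and 146 on JQ1 MEP. With JQ1 in MEP, 13 of 14 were lower by 2-fold, against 5.77% of all genes, at a median of -1.70. Their part in the differences of Atg9a, Atg16l1 and Stx17 was not tested. The median of all genes also varied with signal on these arrays, from -0.21 for 3898 genes with a mean log2 signal below 0 to 0.15 for 2393 genes at 4 or above. The 7 dim members had a median of -0.67 and the 14 bright ones 0.09.

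**Figure D2:**
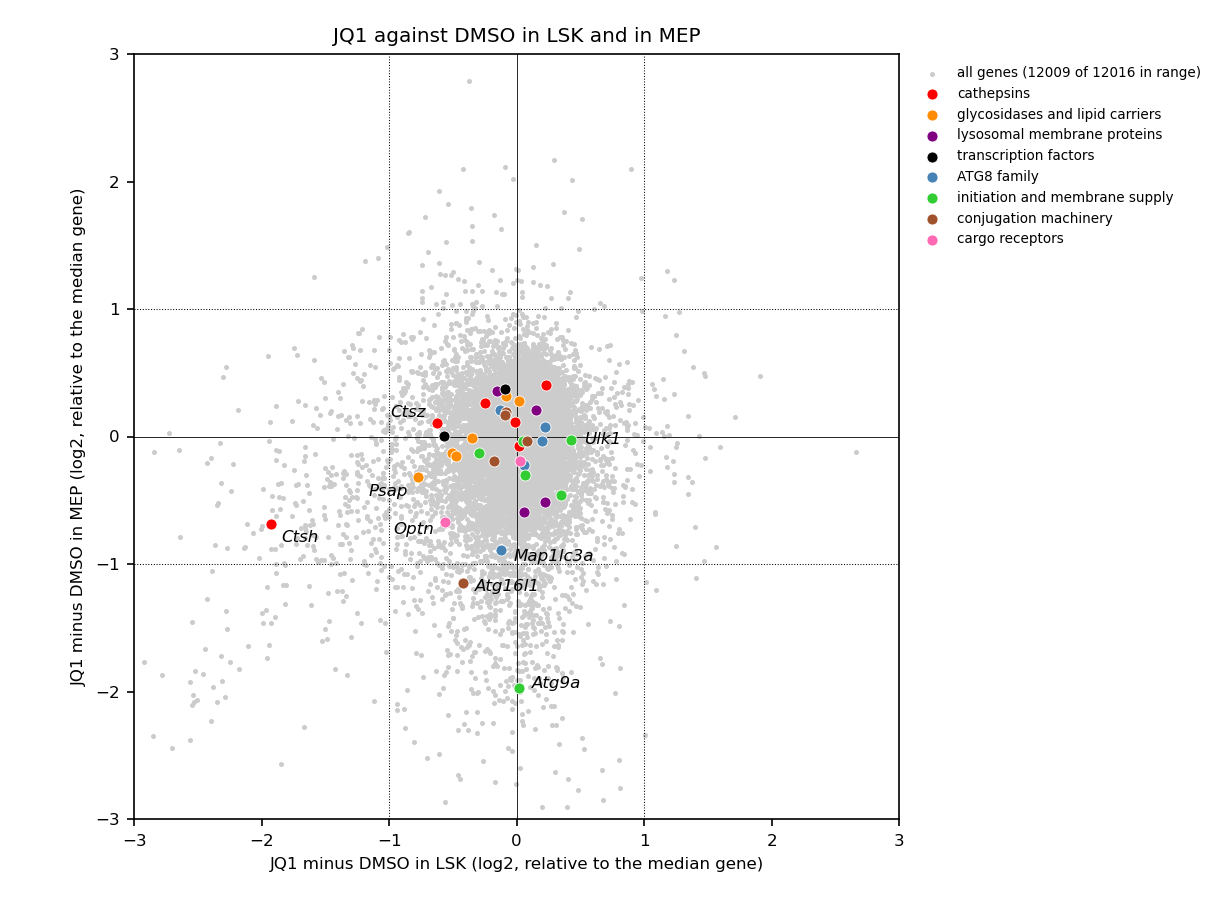
Log2 difference of JQ1 from DMSO, relative to the median gene, in LSK (horizontal) and MEP (vertical) for the 36 genes, coloured by role, over the other measured genes in grey; each point is 1 gene and dotted lines mark 2-fold. Ctsh lies far to the left at -1.93, and Atg9a low at -1.97 and near 0 in LSK. Atg16l1 lies past the 2-fold line in MEP at -1.15, and the other members lie within the dotted lines.

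The JQ1 difference was also compared between the cell types. Subtracting the LSK difference from the MEP difference, which uses all 4 arrays, gave 1.24 for Ctsh and a 4.01-fold lower value for Atg9a, the 2 of 36 past 2-fold. Of 12016 genes 3.31% were higher by 2-fold and 5.92% lower. The high Atg9a signal on the DMSO MEP array enters its value here. At 1.5-fold Ctsh and Ctsz were higher, against 9.07% of all genes. Lower at 1.5-fold were Npc1, Mcoln1, Map1lc3a, Atg9a, Wipi2 and Atg16l1, which is 6 of 36 against 13.9%. The value of Wipi2 was -0.82 by its brighter probe and 0.02 by its other probe, so that call rests on 1 of its probes. Over the other ways of processing, Ctsh ran from 1.09 to 1.74 and Atg9a from -2.14 to -1.40. No member was past 1.5-fold in opposite directions in the 2 cell types, where 0.907% of genes were. Among 152 other pathway genes, Igf2r (1.67), Galns (1.48), Tpcn1 (1.35), Tfec (1.32) and Ifi30 (1.02) were higher by 2-fold in this difference, and Stx17, Dnase2a and Wdr45b were lower. The 2 JQ1 comparisons share no array, but all arrays are from 1 slide.

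Soluble lysosomal and autophagy members lay on opposite sides of the median gene in this difference. Of the 12 soluble members, 11 had a higher value in MEP than in LSK, at a median of 0.35, with Ctsl as the exception by the brightest probes. The other probes of Ctsd (-0.72, against 0.16) and Ctsa (-0.28, against 0.12) fell on the other side, and with the mean over probes 9 of the 12 were above. All 6 glycosidases and lipid carriers were on this side, at 0.25 to 0.44. Of the 18 autophagy genes, 14 had a lower value in MEP, at a median of -0.20, which turned to 0.09 without centring and to 0.31 with scaling to the median probe, both of which keep the shift of the median gene. Over the other ways of processing, 9 to 11 of the 12 soluble members stayed above the median gene. Signal moved with this split: all genes at a mean log2 signal of 4 or above had a median of 0.15 and those below 0 had -0.14, so that bright and dim genes differed by themselves in the direction in which these groups did. The part of signal in it was not tested.

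**Figure D3:**
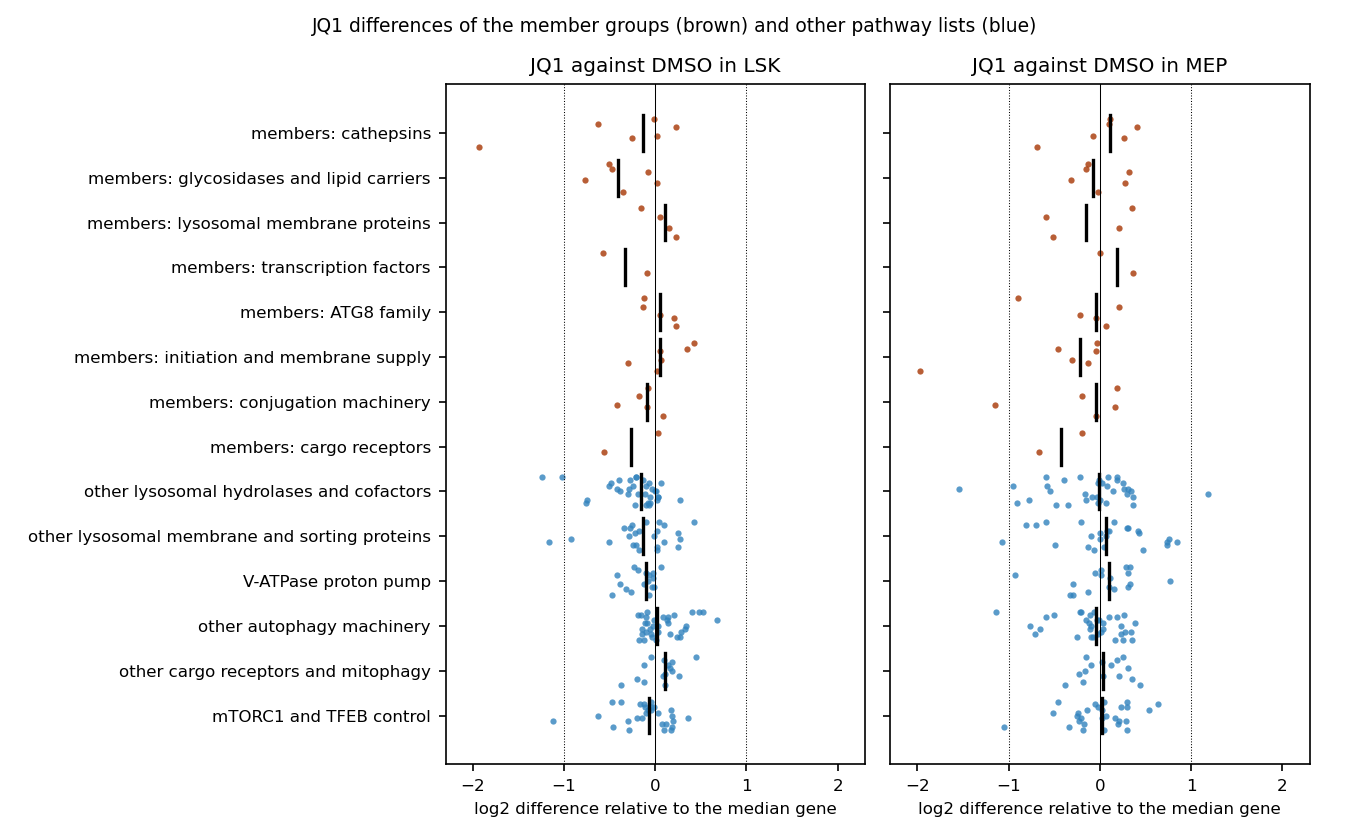
Log2 difference of JQ1 from DMSO, relative to the median gene, in LSK (left) and MEP (right), for each role of the 36 genes in brown and for the other pathway lists in blue; each point is 1 gene, shifted vertically only for visibility, and the bar is the group's median. In LSK the glycosidases and lipid carriers have the lowest median of the member groups, -0.41, and in MEP the cargo receptors, -0.43, a group of 2 genes.

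The third question was how MEP cells differ from LSK cells. Under DMSO, Atg9a was 3.75-fold and Optn 3.08-fold higher in MEP, and no member was 2-fold lower. Under JQ1, Optn was 2.84-fold higher in MEP, and Atg9a was at -0.10. The Atg9a difference under DMSO ran from 1.31 to 2.05 over the other ways of processing. The DMSO comparison shares the DMSO MEP array with that of JQ1 in MEP, so the high Atg9a signal there enters both. Higher by 2-fold were 2 of 36 under DMSO, where 5.68% of all genes were, and lower were 0, where 4.32% were. With JQ1, higher by 2-fold was 1 of 36, where 3.94% of all genes were, and lower were 0, where 4.01% were. The median of the 36 genes was -0.11 under DMSO and -0.08 under JQ1. The 2 comparisons share no array.

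Optn had log2 signals of -2.61 and -3.11 on the DMSO and JQ1 arrays of LSK, and of -1.20 and -1.53 on those of MEP. Both MEP arrays read higher than both LSK arrays. It was read by a single, dim probe, and with normexp background correction its differences were 0.72 under DMSO and 0.67 under JQ1, both under 2-fold. Its highest values over the other ways of processing were 1.77 and 1.69. Optn was 1 of 36 genes 2-fold higher in MEP under both treatments, where 1.83% of 12016 genes were.

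Ctsl, cathepsin L, a cysteine protease, was the other member higher in MEP by 1.5-fold under both treatments (4.18% of all genes were). On the LSK arrays it had log2 signals of 3.30 with DMSO and 3.38 with JQ1, and on the MEP arrays 3.90 and 4.16. The LSK and MEP arrays did not overlap, and the differences were 0.81 and 0.71. Wipi1, a phosphoinositide-binding protein of the forming membrane, was at 0.92 and 0.55, and Neu1 at 0.38 and 0.71. Atg16l1 was at 0.84 under DMSO and 0.10 under JQ1, and Ctsh at -0.54 and 0.69. Past 1.5-fold and higher under DMSO were 5 of 36, against 14.0% of all genes, and under JQ1 4 of 36, against 8.54%.

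Members lower in MEP by 1.5-fold under DMSO were Ctsz (-0.74), Tfeb (-0.68) and Lamp2 (-0.59), which is 3 of 36 against 11.9% of all genes. Lamp2, the membrane glycoprotein that takes part in chaperone-mediated autophagy, had log2 signals of 4.07 with DMSO and 4.28 with JQ1 in LSK, and of 3.26 and 3.81 in MEP. It was lower in MEP under both treatments, with -0.55 under JQ1, and its other probe had -0.65 and -0.56. Under JQ1, Npc1 was the only member lower by 1.5-fold, at -0.82, where 10.8% of all genes were lower. The side of the median gene was the same under both treatments for 23 of 36 members, and for 63.1% of all genes.

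By role, the soluble lysosomal genes were lower in MEP under DMSO, with 10 of 12 below the median gene and a median of -0.42, which ran from -0.74 to -0.27 over the other ways of processing. Ctsd (-0.41), Ctsa (-0.39), Ctsb (-0.35), Hexa (-0.56), Psap (-0.53), Gusb (-0.50), Glb1 (-0.42) and Npc2 (-0.38) all lay between -0.6 and -0.3. Ctsl and Neu1 were the exceptions. The other probes of Ctsd (0.34) and Ctsa (0.05) were above the median gene in this comparison. Under JQ1 the same 12 genes had a median of -0.08, with 8 below the median gene. Of the membrane proteins, Lamp1 was at -0.18 and 0.32 and Mcoln1 at 0.58 and -0.16 under DMSO and JQ1. Monocyte and macrophage markers summed to 101 and 39.9 in LSK with DMSO and JQ1, and to 44.8 and 50.1 in MEP. Of 12 measured, 4 were 2-fold lower in MEP under DMSO and 1 under JQ1. Vcam1 in that list was higher in MEP, at 1.67 and 2.95. Mast cell and basophil markers, all 10 above background on every array, summed to 392, 334, 51.1 and 57.5. Neutrophil and promyelocyte markers summed to 1943, 1299, 1521 and 2355.5 in the same order. Of these, 4 were 2-fold higher and 1 lower in MEP under DMSO, and 7 higher and 0 lower under JQ1. The part of these cells in the lower signal of soluble lysosomal genes in MEP was not tested.

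Of the autophagy genes other than those named, none was past 1.5-fold between the cell types. Map1lc3b, the ATG8 gene most used to mark autophagosomes, was at 0.04 under DMSO and -0.21 under JQ1. Sqstm1, which encodes the cargo receptor p62, was at 0.26 and 0.03, with log2 signals of 1.43, 1.52, 1.48 and 1.63 on the 4 arrays, among the steadiest of the set. Gabarapl1 was at 0.28 and 0.12, Gabarapl2 at 0.34 and 0.05, and Gabarap at -0.21 and 0.12. Atg7, an activating enzyme of the conjugation, was at -0.16 and -0.19, Atg5 at -0.12 and 0.12, and Atg12, the ubiquitin-like partner of Atg5, at 0.01 and -0.12. Becn1, Atg14, Atg4b and Ulk1 lay between -0.26 and 0.07 in this comparison, apart from Ulk1 under JQ1, at -0.49. Map1lc3a was at 0.36 and -0.42, and Wipi2 at 0.28 and -0.54 by its brighter probe but at 0.08 and 0.09 by its other probe.

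**Figure D4:**
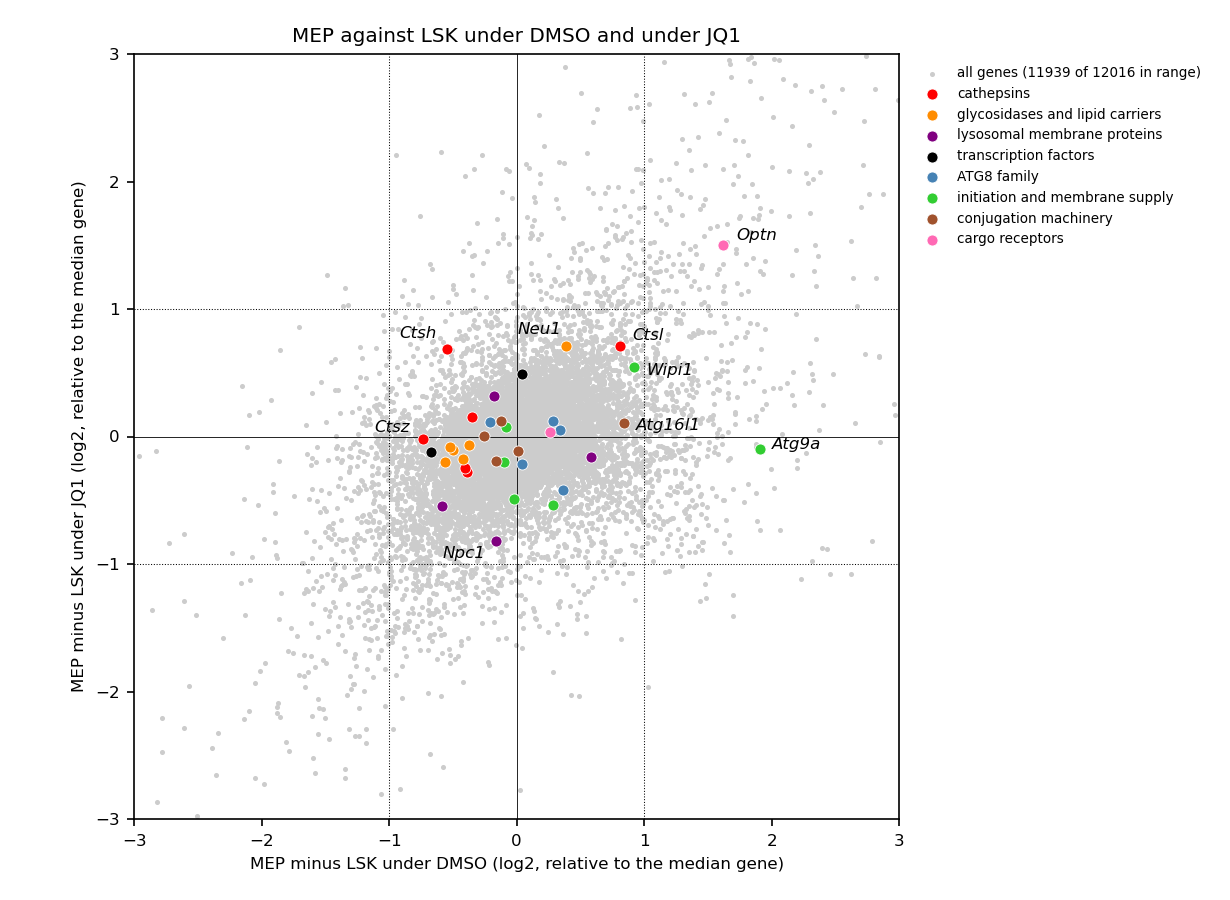
Log2 difference of MEP from LSK, relative to the median gene, under DMSO (horizontal) and under JQ1 (vertical) for the 36 genes, coloured by role, over the other measured genes in grey; each point is 1 gene and dotted lines mark 2-fold. Optn is high under both treatments (1.62 and 1.51), while Atg9a is high under DMSO (1.91) and near 0 under JQ1.

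Among the 152 other measured pathway genes, 1 was higher and 7 were lower in MEP by 2-fold under DMSO. Of all genes, 5.68% were higher and 4.32% lower. With JQ1, 3 were higher and 4 lower, against 3.94% and 4.01% of all genes. The share of all genes lower under both treatments is not given here, so an overlap between the 2 comparisons has no baseline. Lower by 2-fold under DMSO and also under JQ1 were the same 4 genes. They were Lgmn, the asparaginyl endopeptidase legumain (-1.16 and -1.44), the lysosomal membrane genes Laptm4b (-1.49 and -1.77) and Mcoln2 (-1.18 and -1.82), and Mitf, a relative of TFEB known for mast cell development (-1.16 and -1.25). Lgmn had log2 signals of 2.44 with DMSO and 2.78 with JQ1 in LSK, and of 1.06 and 1.40 in MEP. The LSK arrays stood above the MEP arrays. Under DMSO, Galns (-1.29) was lower as well, and Stx17 was higher (1.55). Under JQ1, the mannose 6-phosphate receptor gene Igf2r (1.56), the iron transporter gene Slc11a2 (1.53) and the channel gene Tpcn1 (1.29) were higher.

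The genes whose promoter windows are printed above were set beside those without the motif. The 6 genes had medians of 0.0034 for JQ1 in LSK, 0.20 for JQ1 in MEP, -0.29 between the cell types with DMSO and -0.18 with JQ1. The 23 genes with a promoter entry and no TCACGTG had medians of -0.08, -0.04, -0.02 and -0.02 in the same order. Except for JQ1 in LSK, the medians of the 6 genes lay further from the median gene. All of the 6 but Atg7 are lysosomal genes, and the part of role in this was not tested. None of the 6 genes was past 1.5-fold in any of the 4 comparisons, and their values ran from -0.51 (Mcoln1 with JQ1 in MEP) to 0.58 (Mcoln1 in MEP against LSK under DMSO). Lamp1, with 4 matches, had log2 signals of 6.66 with DMSO and 6.57 with JQ1 in LSK, and of 6.27 and 6.96 in MEP. These 4 values spanned less than 1 log2 unit.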

How the data were processed

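Total RNA (20 ng per array, per the labels) of sorted marrow cells was labelled with Cy3 and hybridised to array design 028005. Scans were read by Agilent's Feature Extraction software (version 10.7.1.1, protocol GE1_107_Sep09), per the file headers. The deposited processed signal is an intensity, corrected for background. The authors' deposited table holds a ratio whose 75th percentile was 1.00. For probes above 1 (13923 to 13929 per array), the quotient of intensity and ratio was within 1% of a single constant in 100% of cases; no source used here names the tool behind the table.

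The deposited intensity was put on the log2 scale, averaged over a probe's spots without outlier marks, and reduced by the array's 75th percentile. Probes were named through transcript accessions and RefSeq (GRCm38.p6), which gave 28026 of 55681 probes (50.3%) a symbol. The brightest probe represented a gene. A gene counted as measured when at least a share of 0.5 of its spots were well above background on both arrays. No spot was saturated (0 on each array). No covariate could be fitted and no test exists with 1 array per group; the number of arrays limits the precision.

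All 36 members were described, those past 2-fold with every array value and the range over the alternatives. Of the other pathway lists, genes past 2-fold were named, at most 5 per direction and comparison. Members with 2 probes were to be named where the probes differed in sign with one past 1.5-fold, which held for Ctsd and Wipi2 in the difference between the JQ1 differences and for no member in the other 4 comparisons. The members, lists and groupings were chosen with earlier results of these data known. Python 3.11.15, numpy 2.4.6, pandas 2.3.3, matplotlib 3.10.9 and R 4.3.3 with limma 3.58.1 (normexp, offset 50) were used. The alternative with normexp started from the median spot signal, since the mean spot signal was not used here. The calculation was tested on simulated data.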

Additional observations from a re-analysis of the deposited data

How the results depend on the processing

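With 8 alternatives for each result, no value changed to the opposite called direction, and Ctsh with JQ1 in LSK stayed past 2-fold in all 8. No paired analysis was possible because each group has a single array, numbered 1. Without centring, the median of the 36 genes was -0.018 for JQ1 in LSK and 0.30 in MEP, -0.33 and -0.0074 between the cell types with DMSO and JQ1, and 0.36 for the difference between the JQ1 differences. With scaling to the median probe and no centring, these medians were 0.18, 0.72, -0.43, 0.11 and 0.58. Both settings carry the shift of the median gene, which differed between arrays. Without the background filter they were 0.063, -0.12, 0.035, -0.14 and -0.063. Quantile normalization gave -0.21 for JQ1 in MEP. The number of members past 2-fold with JQ1 in MEP (2 here) was 1 without centring, 7 with scaling to the median probe (6 of them higher), 1 with quantile normalization, 1 after normexp and 0 in the brighter part of the genes (signal above the median). Between the cell types it was 1 after normexp and 0 in that brighter part with DMSO (2 here), and 0 and 0 with JQ1 (1 here). For the difference between the JQ1 differences (2 here) it was 6 with scaling to the median probe and 1 in the brighter part. The last setting leaves out the dim genes Atg9a, Atg16l1 and Optn. Shares of all genes past 2-fold were not counted under these other settings, so these numbers have no baseline. The split of genes by signal and the grouping into soluble lysosomal and autophagy genes were chosen after seeing the data. With 1 array per group and 1 slide, differences between mice, sorts or labellings cannot be told apart from the groups. Dim signals limit Optn most, with a scanner error of 17.7% on JQ1 LSK.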

Other observations

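Bnip3l, the receptor that marks mitochondria for removal as red cells mature, was at 0.63 in MEP against LSK under DMSO and at 0.46 under JQ1, relative to the median gene. It was named after its values were seen.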
